A study of Mus musculus with 4 samples.

Results

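Primitive endoderm is the layer of cells that forms on the inner cell mass of the blastocyst, beside the epiblast, and later gives rise to visceral and parietal endoderm of the yolk sac. The 10 genes followed here are the transcription factors Gata6, Gata4, Sox17, Sox7, Foxa2 and Hnf4a, the growth factor receptor gene Pdgfra, the endocytic adaptor gene Dab2, and Cubn and Amn, whose products together form the cubam receptor. They were picked by gene name, and all 10 were found, 1 row each, among 22739 named genes. Embryonic stem (ES) cells resemble the epiblast and normally hold these genes at low levels; signalling by FGF through ERK favours primitive endoderm, while NANOG opposes GATA6. In mice GATA6 acts early in the lineage, SOX17, GATA4 and SOX7 follow, and HNF4A, FOXA2 and the cubam receptor belong to its visceral endoderm descendants.

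The knockdown cells were CCE mouse ES cells (strain 129SV) carrying a short hairpin RNA against Tex10 (shTex10), and the control was the same line with a hairpin against luciferase (shLuci), which mice lack. Each group had 2 libraries of poly(A)-selected RNA. Cells of both groups were kept without feeder cells, on gelatin in LIF and serum. The labels name 1 knockdown for each target, so effects of the Tex10 hairpin other than through Tex10 were not tested. The design text calls the libraries biological replicates without saying whether they were cultured apart, and the spread behind each p-value is that between libraries.

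Tex10 measured 11.6 and 13.4 FPKM in the shTex10 libraries, against 77.3 and 82.1 FPKM in the shLuci libraries. FPKM is a level per transcript length and per mapped fragment, so levels can be set side by side between genes. The ES cell regulator Pou5f1 stood at 549 to 600 FPKM in shTex10 and 848 to 938 FPKM in shLuci, so the labelled cell type carried its defining transcript in all 4 libraries. Read totals are unknown; from the smallest values of unnamed rows, depth was roughly 77.4% and 86.0% in shTex10 of that in shLuci replicate 1, and 95.2% in shLuci replicate 2. The number of reads behind a low value is therefore unknown too. Changes below are shTex10 minus shLuci on the log2(FPKM + 1) scale, where the pseudocount of 1 shrinks the change of genes this low. Calls are limma tests with Benjamini-Hochberg adjusted p under 0.05.

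The primitive endoderm genes were low in both groups, and 2 of them, Dab2 and Hnf4a, were higher in shTex10. The other 8 stayed under 1 FPKM in every library. None of the 40 values was 0. The summed level of the 10 genes was 9.37 and 9.32 FPKM in the shTex10 libraries and 5.48 and 5.01 FPKM in the shLuci libraries, and most of that difference lay in Dab2 and Hnf4a. The median of the 10 mean levels was 0.486 FPKM, beside a median of 11.6 FPKM over the 11883 genes tested, which are those with a mean of at least 1 FPKM. Among all named genes the 10 lay between the 36.6th percentile (Sox7) and the 58.0th (Dab2) in shTex10, and between the 34.6th (Sox17) and the 51.1st (Dab2) in shLuci.

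**Figure D1:**
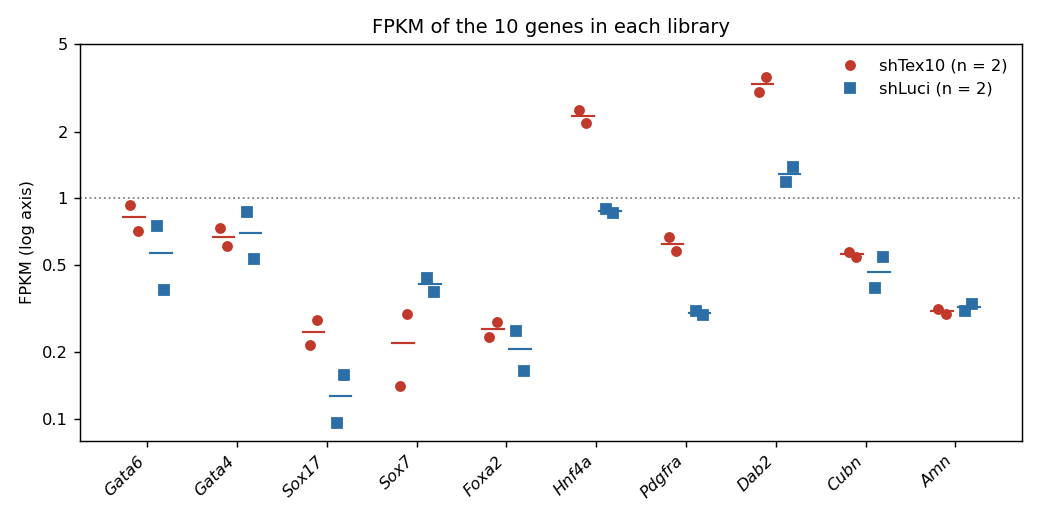
FPKM on a log axis for each of the 10 genes, with 1 point per library and a line at the group mean, shTex10 as red circles and shLuci as blue squares (2 libraries each); the dotted line marks 1 FPKM. Dab2 and Hnf4a lie above 1 FPKM in shTex10 and apart from shLuci, while the other 8 genes stay below the line.

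In order of mean level, shTex10 cells held Dab2, Hnf4a, Gata6, Gata4, Pdgfra, Cubn, Amn, Foxa2, Sox17 and Sox7. The order in shLuci was Dab2, Hnf4a, Gata4, Gata6, Cubn, Sox7, Amn, Pdgfra, Foxa2 and Sox17. Dab2 was clear of Hnf4a in both groups. Hnf4a was clear of the next gene in shTex10 but overlapped Gata4 in shLuci, where Gata4 had 0.865 FPKM in replicate 1 and Hnf4a 0.855 FPKM in replicate 2. Lower in the order, Gata6 overlapped Gata4, Gata4 overlapped Pdgfra, Foxa2 overlapped Sox17 and Sox17 overlapped Sox7 in shTex10. In shLuci the same held for Gata4 and Gata6, Gata6 and Cubn, and Cubn and Sox7.

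**Figure D2:**
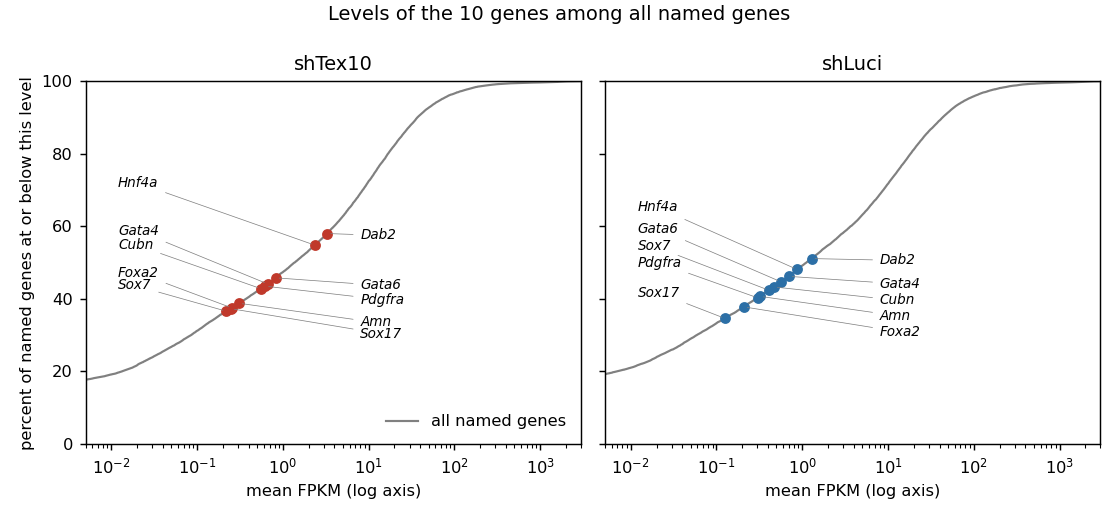
Cumulative share of named genes (percent) against mean FPKM on a log axis, in shTex10 (left) and shLuci (right), with the 10 genes as points on the curve. Dab2 and Hnf4a sit further up the curve in shTex10, at the 58.0th and 54.8th percentile against the 51.1st and 48.1st in shLuci.

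Of the 10 genes, 2 passed the filter on low values and both were called higher. Over all genes tested 19.8% were called higher and 31.8% lower. Hnf4a passed the filter only through shTex10, so its place among tested genes already depended on the difference; Dab2 reached 1 FPKM in both groups. Without the filter, 3 of the 10 were called higher (Pdgfra, Dab2 and Hnf4a) and 0 lower, beside 16.0% higher and 18.8% lower over the 19307 genes with any signal. Among the 8 low genes that is 1 call, beside 24.7% called higher and 10.0% lower in the 3642 genes with mean levels of 0.1 to 1 FPKM. For Sox17, Pdgfra, Dab2, Hnf4a and Cubn the shTex10 libraries both exceeded the shLuci libraries, and for Sox7 both were lower; over all genes with any signal 31.5% lay above and 35.8% below. Among the 8 low genes these were 3 above and 1 below, and in the 3642 genes of that range 45.2% lay above and 23.1% below. In bulk RNA, a change in the number of cells that express a gene and a change in RNA per cell cannot be told apart.

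Gata6, the zinc finger factor that starts the primitive endoderm programme (mm9 chromosome 18, 11052090 to 11085633), had 0.932 and 0.711 FPKM in shTex10 and 0.744 and 0.385 FPKM in shLuci. The groups overlapped, because shTex10 replicate 2 lay below shLuci replicate 1. In the fit without a filter its log2 change was 0.23 (SE 0.14, Benjamini-Hochberg adjusted p = 0.266 in limma). Gata4, its relative in the same lineage (chromosome 14, 63817751 to 63875393), had 0.731 and 0.606 FPKM in shTex10, inside the range of 0.865 and 0.532 FPKM in shLuci. The log2 change of Gata4 was -0.02 (SE 0.11). Neither difference exceeded the spread between libraries.

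The SOX factors of the lineage pointed in opposite directions. Sox17 (chromosome 1, 4481008 to 4486494) had 0.215 and 0.281 FPKM in shTex10 and 0.0952 and 0.157 FPKM in shLuci, with no overlap. Sox7 (chromosome 14, 64562542 to 64569569) had 0.141 and 0.298 FPKM in shTex10 and 0.436 and 0.376 FPKM in shLuci, also with no overlap but lower in both shTex10 libraries. Neither passed in the fit without a filter: Sox17 had a log2 change of 0.15 (SE 0.05, Benjamini-Hochberg adjusted p = 0.0693 in limma) and Sox7 of -0.21 (SE 0.07, adjusted p = 0.0932). The 2 shTex10 libraries of Sox7 lay further apart than those of shLuci.

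Foxa2, a forkhead factor of endoderm (chromosome 2, 147868613 to 147872705), had 0.235 and 0.276 FPKM in shTex10 and 0.251 and 0.165 FPKM in shLuci. The groups overlapped, and its log2 change of 0.06 (SE 0.05) was not called.

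Hnf4a, a nuclear receptor gene of visceral endoderm and liver (chromosome 2, 163317338 to 163398643), rose. It had 2.52 and 2.20 FPKM in shTex10 and 0.889 and 0.855 FPKM in shLuci, with no overlap. The mean was 2.36 ± 0.229 FPKM in shTex10 and 0.872 ± 0.0237 FPKM in shLuci (SD, n = 2 each), a ratio of 2.70 and a log2 change of 0.84 (SE 0.10, Benjamini-Hochberg adjusted p = 0.00155 in limma). Of all genes tested, 7.81% had a larger log2 change than Hnf4a, which is in that set only through shTex10. In the fit without a filter its Benjamini-Hochberg adjusted p was 0.00537 (limma).

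The deposited row of Hnf4a has the same locus as those of 2 other genes, R3hdml and 0610008F07Rik. R3hdml, which encodes a putative protease inhibitor, rose as well, to 5.58 and 5.68 FPKM in shTex10 against 2.30 and 1.89 FPKM in shLuci (log2 change 1.10, SE 0.10, Benjamini-Hochberg adjusted p = 0.000893 in limma). In the GENCODE annotation of GRCm38, R3hdml lies upstream of Hnf4a on the same strand and shares 0 exonic bases with it. How reads of the joint locus were divided between these rows is not given in the sources used here, so the level of Hnf4a is uncertain to that extent. The neighbours outside the locus differed from each other: Ttpal was not called (log2 change 0.02, SE 0.09), and Fitm2 was called higher (log2 change 0.40, SE 0.10, Benjamini-Hochberg adjusted p = 0.0192 in limma).

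Pdgfra, the receptor for PDGF-A that marks primitive endoderm precursors in the blastocyst (chromosome 5, 75548315 to 75594229), had 0.668 and 0.573 FPKM in shTex10 and 0.309 and 0.294 FPKM in shLuci. The groups stood apart, and the ratio of the means was 2.06. Its mean of 0.461 FPKM over the 4 libraries kept it out of the main test; without a filter it was called (log2 change 0.32, SE 0.05, Benjamini-Hochberg adjusted p = 0.0121 in limma). The adjoining receptor gene Kit moved the other way, to 7.09 and 7.29 FPKM in shTex10 against 12.4 and 12.9 FPKM in shLuci. Of 8 other genes for PDGF ligands and related receptors, 4 were tested: Pdgfa and Pdgfb rose and Pdgfc and Kit fell. Among all genes tested 19.8% were called higher and 31.8% lower. Pdgfa, the ligand of this receptor in the embryo, measured 53.4 ± 8.34 FPKM in shTex10 and 37.5 ± 2.76 FPKM in shLuci (log2 change 0.49, SE 0.13, Benjamini-Hochberg adjusted p = 0.0247 in limma), a call lost without shTex10 replicate 2 (adjusted p = 0.0934). The call of Pdgfb was lost without shLuci replicate 1, shLuci replicate 2 or shTex10 replicate 1 (adjusted p = 0.127, 0.0703 and 0.237).

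Dab2, which couples endocytic receptors to clathrin and is needed for the ordering of primitive endoderm in mice (chromosome 15, 6249788 to 6390709), rose. It had 3.04 and 3.54 FPKM in shTex10 and 1.19 and 1.38 FPKM in shLuci, with no overlap. The mean was 3.29 ± 0.354 FPKM in shTex10 and 1.28 ± 0.137 FPKM in shLuci (SD, n = 2 each), a ratio of 2.57 and a log2 change of 0.91 (SE 0.11, Benjamini-Hochberg adjusted p = 0.00167 in limma). Of all genes tested, 6.98% had a larger log2 change than Dab2. The rows on either side of Dab2, 5430437J10Rik and C9, were at or near 0 in all 4 libraries. Euclidean distance to Dab2 was taken over the 4 libraries on log2(FPKM + 1) values, each gene centred on its own mean. The nearest tested genes were Vcan (distance 0.0154), Eda2r (0.0302) and Tbc1d23 (0.0366). Their mean levels were higher, at 12.8, 49.1 and 22.4 FPKM, so the pseudocount shrinks the change of Dab2 more than theirs. The ratios of their group means were 1.99, 1.91 and 1.90, against 2.57 for Dab2.

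Cubn, the large ligand-binding subunit of the cubam receptor (chromosome 2, 13197964 to 13413503), had 0.573 and 0.540 FPKM in shTex10 and 0.391 and 0.538 FPKM in shLuci. The lower shTex10 value exceeded the higher shLuci value by less than the spread within shLuci, and the log2 change of 0.09 (SE 0.07) was not called in the fit without a filter. Amn, the membrane anchor of cubam (chromosome 12, 112509321 to 112514637), had 0.315 and 0.299 FPKM in shTex10 and 0.309 and 0.331 FPKM in shLuci, with overlapping groups and a log2 change of -0.01 (SE 0.04). Lrp2, the gene of megalin, which takes up ligands together with cubam, was far more abundant and rose, to 18.1 and 16.4 FPKM in shTex10 against 10.6 and 10.1 FPKM in shLuci (log2 change 0.68, SE 0.10, Benjamini-Hochberg adjusted p = 0.00295 in limma).

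The promoters of Dab2 and Hnf4a are shown because these are the members whose levels differed most between the groups. Of the 10 genes, 6 have entries in the RefSeq promoter table of GRCm38.p6, with 10 annotated starts in all; Dab2 and Hnf4a have 2 each. The 250 bases before each start are given 5′ to 3′ on the plus strand, which carries both genes. Capitals mark matches, on either strand, to the GATA motif (AGATAA or TGATAA) and to the HNF1 core motif (GTTAAT), which do not overlap each other here.
Dab2 start 1, chr15:6299539-6299788: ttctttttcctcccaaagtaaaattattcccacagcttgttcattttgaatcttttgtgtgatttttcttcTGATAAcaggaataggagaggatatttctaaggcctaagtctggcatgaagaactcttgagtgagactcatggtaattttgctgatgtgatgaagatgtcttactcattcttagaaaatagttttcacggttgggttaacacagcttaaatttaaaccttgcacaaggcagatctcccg
Dab2 start 2, chr15:6386498-6386747: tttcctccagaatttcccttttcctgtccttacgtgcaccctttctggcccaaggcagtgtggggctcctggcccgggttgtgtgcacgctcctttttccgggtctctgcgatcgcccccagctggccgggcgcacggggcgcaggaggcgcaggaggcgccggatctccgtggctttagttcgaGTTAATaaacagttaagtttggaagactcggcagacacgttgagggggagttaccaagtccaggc
Hnf4a start 1, chr2:163506607-163506856: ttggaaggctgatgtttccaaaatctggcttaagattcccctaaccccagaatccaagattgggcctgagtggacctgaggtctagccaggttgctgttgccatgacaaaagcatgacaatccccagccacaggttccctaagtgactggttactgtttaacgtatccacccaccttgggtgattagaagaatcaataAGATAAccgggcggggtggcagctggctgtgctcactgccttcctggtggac
Hnf4a start 2, chr2:163546905-163547154: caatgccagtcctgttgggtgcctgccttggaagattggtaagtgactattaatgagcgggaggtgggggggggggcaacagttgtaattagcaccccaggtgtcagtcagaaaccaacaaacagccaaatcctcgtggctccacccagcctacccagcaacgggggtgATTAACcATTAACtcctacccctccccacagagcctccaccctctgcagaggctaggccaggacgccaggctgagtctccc
The GATA motif lay 179 to 174 bases before the first start of Dab2 and 52 to 47 bases before the first start of Hnf4a. The second start of Dab2 had an HNF1 core motif 65 to 60 bases upstream, and the second start of Hnf4a had a pair, at 81 to 76 and 74 to 69 bases. Among the other members, 1 start of Foxa2 held both motifs, and the windows of Pdgfra, Cubn and Amn held neither. Over 32851 promoter windows of the same length, 16.6% held the GATA motif and 6.4% the HNF1 core motif. A core SOX motif (ATTGTT) was found in none of the members' 10 windows and in 9.4% of all windows. The FPKM values are sums over starts and do not tell which start was used.

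Of 11 relatives of these genes, 5 were tested: Gata2, Gata3 and Lrp2 rose, Dab1 fell and Gata1 was not called. Beside them, 19.8% of all genes tested were called higher and 31.8% lower. Gata2 and Gata3, GATA factors of trophoblast, rose: Gata2 had 3.73 and 3.92 FPKM in shTex10 against 1.25 and 1.23 FPKM in shLuci, and Gata3 had 6.22 and 7.75 FPKM in shTex10 against 1.87 and 2.15 FPKM in shLuci. Their log2 changes were 1.10 (SE 0.09) and 1.40 (SE 0.13, Benjamini-Hochberg adjusted p = 0.000538 and 0.000764 in limma). Gata4 and Gata6 together made up 13.2% and 9.62% of the summed FPKM of the 6 GATA genes in the shTex10 libraries, against 25.8% and 17.3% in the shLuci libraries. Gata1 was not called (log2 change -0.29, SE 0.14, Benjamini-Hochberg adjusted p = 0.135 in limma), and Gata5 was listed at 0 in all 4 libraries.

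Dab1, the neuronal relative of Dab2, fell to 3.93 and 4.07 FPKM in shTex10, against 6.94 and 8.52 FPKM in shLuci (log2 change -0.80, SE 0.12, Benjamini-Hochberg adjusted p = 0.00342 in limma). Dab2 was thus 43.7% and 46.6% of the summed FPKM of Dab1 and Dab2 in the shTex10 libraries, and 14.6% and 13.9% in the shLuci libraries. Hnf4g was at or near 0 in every library. Sox18, Foxa1, Foxa3 and Pdgfrb averaged under 1 FPKM and were not in the main test. Foxa1 had 1.07 and 0.740 FPKM in shTex10 and 0.400 and 0.482 FPKM in shLuci. Without a filter Foxa1 was called higher (log2 change 0.40, SE 0.10, Benjamini-Hochberg adjusted p = 0.0416 in limma). Sox18, Foxa3 and Pdgfrb were not called in that fit. The lowest library value of these genes was 0.241 FPKM (Foxa3, shTex10 replicate 2).

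**Figure D3:**
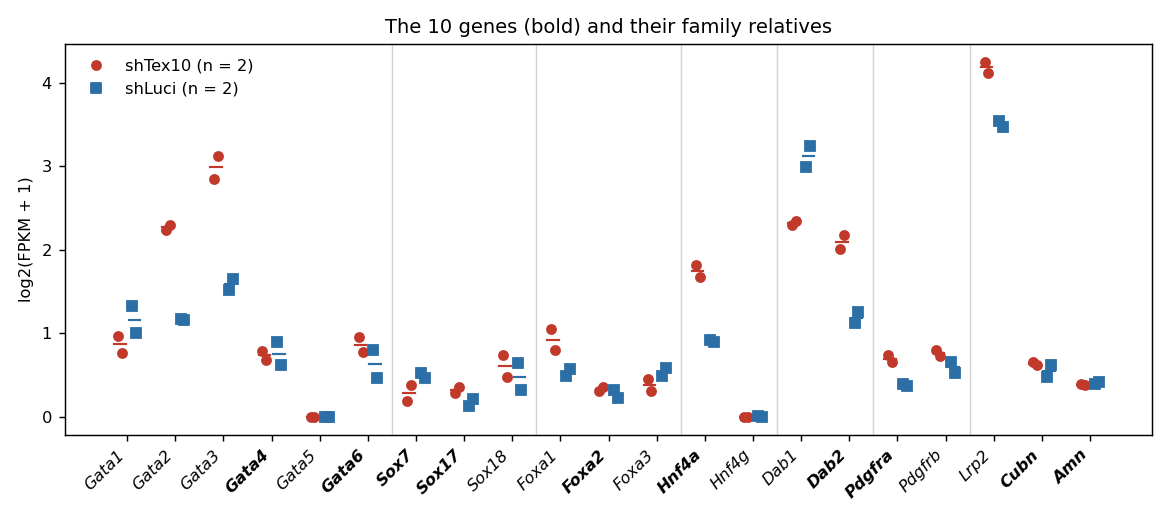
Levels as log2(FPKM + 1) of the 10 genes (bold) and their relatives, with 1 point per library and a line at the group mean, shTex10 as red circles and shLuci as blue squares. Gata2, Gata3, Hnf4a, Dab2 and Lrp2 are higher in shTex10, Dab1 is lower, and the lineage factors Gata4, Gata6, Sox7, Sox17 and Foxa2 stay near the bottom.

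Other genes known from primitive endoderm were mixed. Of 30, 22 were tested, 11 rose, 4 fell and 7 were not called. Their median log2 change was 0.31, beside -0.14 over all genes tested, of which 19.8% were called higher and 31.8% lower. Dkk1, 1 of the 11, passed the filter only through shTex10 (means of 1.81 FPKM in shTex10 and 0.528 FPKM in shLuci), and with equal sums over all rows 3 were called higher and 1 lower. The keratin genes Krt19, Krt8 and Krt18, which trophoblast also expresses, rose: Krt19 had 70.3 ± 2.99 FPKM in shTex10 and 23.0 ± 0.326 FPKM in shLuci, Krt8 had 289 ± 7.06 FPKM in shTex10 and 132 ± 0.0856 FPKM in shLuci, and Krt18 had 236 ± 3.76 FPKM in shTex10 and 112 ± 7.41 FPKM in shLuci (SD, n = 2 each). Lama1, a laminin gene of the early basement membranes, fell to 2.38 ± 0.129 FPKM in shTex10, against 9.19 ± 0.0320 FPKM in shLuci (log2 change -1.59, SE 0.09, Benjamini-Hochberg adjusted p = 0.000225 in limma).

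Most listed products that mature visceral endoderm secretes were low, with Apoe as the exception. Of 16, 11 stayed under 1 FPKM in all libraries, and Ttr, Apoa4, Fgb and Serpina1a (the row of that name alone) were listed at 0 throughout. Afp, the alpha-fetoprotein gene, was at most 0.0498 FPKM. Of the 4 tested, Apom and Trf fell and Apoe and Mttp were not called (median log2 change -0.42). Over all genes tested 19.8% were called higher and 31.8% lower. Without a filter, Apob and Apoc2 were called higher and Apom, Rbp4 and Trf lower. That fit called 16.0% higher and 18.8% lower over the 19307 genes with any signal. The row that names Serpina1a and Serpina1d together lies outside the list. It rose from a mean of 0.569 FPKM in shLuci to 7.98 FPKM in shTex10, and passed the filter only through shTex10. Apoe, an apolipoprotein gene that many cell types use, had 287 and 235 FPKM in shTex10 and 407 and 315 FPKM in shLuci, and made up most of the summed level of the list. Apom, a lipid carrier, had 1.28 ± 0.0753 FPKM in shTex10 and 3.13 ± 0.594 FPKM in shLuci. Trf, the transferrin gene, had 1.08 ± 0.0261 FPKM in shTex10 and 1.71 ± 0.134 FPKM in shLuci, and its call was lost without shLuci replicate 1 (Benjamini-Hochberg adjusted p = 0.0801 in limma).

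FGF and ERK signalling acts upstream of primitive endoderm. Of 23 FGF and ERK genes, 20 were tested, 4 rose, 10 fell and 6 were not called (median log2 change -0.32). The lower calls came to 4 with equal sums over named genes (median -0.10) and to 6 under quantile normalization (median -0.08), and with equal sums over all rows 0 were called higher and 2 lower. Over all genes tested 19.8% were called higher, a share close to the 4 of 20 here, and 31.8% lower, beside 10 of 20 here. Fgf4, the ligand that drives primitive endoderm in the blastocyst, fell to 22.0 ± 0.208 FPKM in shTex10, against 60.6 ± 0.681 FPKM in shLuci (log2 change -1.42, SE 0.08, Benjamini-Hochberg adjusted p = 0.000249 in limma). The feedback inhibitor Spry4, at 8.26 ± 0.476 FPKM in shTex10 and 26.3 ± 2.33 FPKM in shLuci, the ETS factor Etv4, at 20.8 ± 1.92 FPKM in shTex10 and 44.8 ± 3.34 FPKM in shLuci, and the kinase gene Mapk3 (ERK1), at 15.1 ± 1.63 FPKM in shTex10 and 27.4 ± 2.44 FPKM in shLuci, fell too. The 4 that rose were the receptor genes Fgfr1, Fgfr2 and Fgfr4 and the phosphatase gene Dusp4. Fgfr4, at a mean of 2.14 FPKM in shTex10 and 0.838 FPKM in shLuci, passed the filter only through shTex10. The call of Dusp4 was lost without any 1 of the 4 libraries (Benjamini-Hochberg adjusted p = 0.162 to 0.235 in limma). Fgfr2 had 4.88 ± 0.762 FPKM in shTex10 and 2.29 ± 0.166 FPKM in shLuci.

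Of 14 epiblast regulators, a list that also holds Fgf4, all were tested, 0 rose, 10 fell and 4 were not called (median log2 change -0.65). The lower calls came to 5 under quantile normalization (median -0.28), to 7 with equal sums over named genes (median -0.42) and to 2 with equal sums over all rows. Prdm14 had 3.92 ± 0.141 FPKM in shTex10 and 14.4 ± 0.300 FPKM in shLuci. Nanog, the counterpart of Gata6, had 169 ± 6.47 FPKM in shTex10 and 267 ± 14.5 FPKM in shLuci, and Zfp42 had 372 ± 3.06 FPKM in shTex10 and 613 ± 1.91 FPKM in shLuci. Of 13 cofactors of GATA and SOX factors and retinoid receptors, 9 were tested, 1 rose, 4 fell and 4 were not called. For both lists the shares over all genes tested were 19.8% called higher and 31.8% lower. The retinoid partner receptor gene Rxra rose to 12.3 ± 1.44 FPKM in shTex10, against 4.98 ± 0.794 FPKM in shLuci. Rarg, Ep300, Rara and Smad4 fell, with Rarg at 40.0 ± 4.36 FPKM in shTex10 and 60.7 ± 4.94 FPKM in shLuci. Ep300 was not called without shLuci replicate 2, shTex10 replicate 1 or shTex10 replicate 2 (Benjamini-Hochberg adjusted p = 0.0532 to 0.0958 in limma), Rara without shLuci replicate 1 or shTex10 replicate 2 (0.146 and 0.0507), and Smad4 without shLuci replicate 2 or shTex10 replicate 1 (0.250 and 0.221).

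Among 25 partners of DAB2 and cubam in endocytosis, 24 were tested, 10 rose, 5 fell and 9 were not called. Their median log2 change was 0.02. The shares over all genes tested were 19.8% called higher and 31.8% lower. With equal sums over all rows 0 were called higher and 0 lower, and with equal sums over named genes 10 were higher and 2 lower (median 0.23). The receptor chaperone gene Lrpap1 had 62.3 ± 2.62 FPKM in shTex10 and 36.0 ± 0.121 FPKM in shLuci, and the endosomal chloride transporter gene Clcn5 had 11.2 ± 0.730 FPKM in shTex10 and 6.13 ± 0.176 FPKM in shLuci; both rose. The clathrin heavy chain gene Cltc was not called (log2 change -0.03, SE 0.10).

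**Figure D4:**
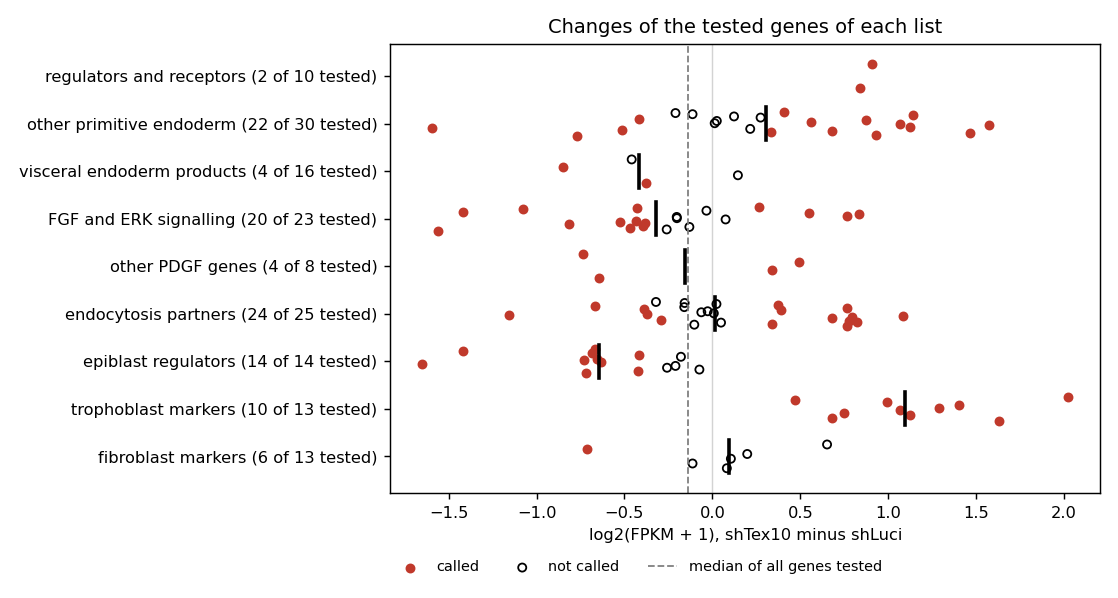
Log2 changes (shTex10 minus shLuci, on the log2(FPKM + 1) scale) of the tested genes of the lists shown, filled where called and open where not, with a black bar at the median of each list other than the regulators and receptors and a dashed line at the median of all genes tested (-0.14). Epiblast regulators lie left of the dashed line with 1 gene between it and 0, trophoblast markers and the 2 tested regulators and receptors lie to its right, and the other lists reach to both sides of 0.

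Markers of other cell types were read beside Dab2 and Hnf4a. For each list of this paragraph, the shares over all genes tested were 19.8% called higher and 31.8% lower. Of 13 trophoblast markers, 10 were tested and all 10 rose (median log2 change 1.10). With equal sums over all rows 4 were called higher, beside 5.55% of all genes. Plac1, at 1.88 and 2.32 FPKM in shTex10 and 0.841 and 1.02 FPKM in shLuci, passed the filter only through shTex10. The list had a summed level of 614 to 623 FPKM in shTex10 and 276 to 284 FPKM in shLuci. Tfap2c was among the 10, at 27.6 ± 0.572 FPKM in shTex10 and 8.25 ± 0.0619 FPKM in shLuci, and so was Ascl2, at 8.69 ± 1.77 FPKM in shTex10 and 1.37 ± 0.286 FPKM in shLuci. Some of these lists share genes, such as Krt8, Krt18, Eomes, Hand1 and Cdx2. Elf5 and Tpbpa stayed under 0.1 FPKM. Of 13 fibroblast markers, 6 were tested, 0 rose and Col1a2 fell. Col1a1 had 30.1 and 20.8 FPKM in shTex10 and 18.8 and 12.8 FPKM in shLuci (log2 change 0.65, SE 0.23, Benjamini-Hochberg adjusted p = 0.0607 in limma). It was called higher with equal sums over named genes, under quantile normalization, with the replicate block and without shLuci replicate 1, shTex10 replicate 1 or shTex10 replicate 2. The fibroblast list had a summed level of 36.9 to 48.8 FPKM in shTex10 and 33.6 to 42.1 FPKM in shLuci; Fap was at or near 0. Of 12 definitive endoderm and mesendoderm markers, 2 were tested and Eomes rose, and of 13 cardiac and hepatic markers, 2 were tested, Hand1 rose and Myl7 fell. The summed level of the endoderm and mesendoderm list was 11.9 to 12.4 FPKM in shTex10 and 9.06 to 9.45 FPKM in shLuci, and that of the cardiac and hepatic list was 18.3 to 21.7 FPKM in shTex10 and 10.4 to 11.3 FPKM in shLuci; Cer1, Alb and Cyp3a11 were at or near 0. The part of any such cells in the rise of Dab2 and Hnf4a was not tested.

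The scale of the libraries shifts these counts. Named genes summed to 525877.9 and 537691.6 FPKM in shTex10 and to 613641.9 and 632066.5 FPKM in shLuci. Rescaling to equal sums over named genes put the median log2 change of all genes at 0.06 and the share of higher genes among all calls at 63.2%, beside 38.3% as deposited. Unnamed rows held 56.3% and 71.6% of the FPKM in shLuci replicates 1 and 2, and 70.8% and 68.8% in shTex10 replicates 1 and 2. The widest gap was thus between the 2 shLuci libraries. Rescaling over all rows put the share of higher genes among all calls at 73.5%. It left the median log2 change of all genes at -0.13, beside -0.14 as deposited. The first called 27.4% of genes higher and 16.0% lower, and the second 5.55% higher and 2.00% lower. With the second, 0 of the visceral endoderm products, of the PDGF genes and of the cofactors were called in either direction. Dab2 and Hnf4a stayed called higher under both, at Benjamini-Hochberg adjusted p = 0.00124 and 0.00153 with the first and 0.0494 and 0.0488 with the second (limma). The first ended the calls of Trf, Rarg, Ep300, Rara and Smad4 among the genes given as risen or fallen above. The second ended, among others, those of Lrp2, Dab1, Krt8, Krt18, Apom, Trf, Etv4, Mapk3, Fgfr1, Fgfr2, Fgfr4, Dusp4, Nanog and Zfp42. It also ended those of Pdgfa, Pdgfb, Pdgfc, Kit, Rxra, Rarg, Ep300, Rara, Smad4, Lrpap1, Clcn5, Plac1, Eomes, Myl7 and Col1a2. None of these changed sign, and the second rescaling left 662 genes called higher and 239 lower. R3hdml and Fitm2 were not followed under either rescaling.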

How the data were processed

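Single-end reads of 100 bp came from poly(A) RNA of 4 libraries, per the labels' protocols. Tools in the submitters' processing notes are Cufflinks 2.1.1, TopHat2 2.0.10 and Bowtie2 2.1.0, and the build is mm9; for their options, the annotation and strand use the sources used here give nothing. The authors deposited FPKM per library, without pooling of replicates. FPKM keep no read totals, so the precision of low values is unknown, and a few abundant short rows can shift all others.

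Rows with a gene name (23311) were kept, and rows sharing a name were summed. Genes with a mean of at least 1 FPKM entered limma 3.58.1 (R 4.3.3) as log2(FPKM + 1), with eBayes and a variance trend, without a replicate block, Benjamini-Hochberg adjusted over all genes; the fit was tested on simulated data. The 10 genes and the 12 other lists, written from general knowledge and partly overlapping, were chosen with earlier results of these data known. Named from each list were up to 4 called genes with the smallest p, all relatives, Tex10 and the 3 genes nearest to Dab2. Some genes that this rule names are not reported here. Pou5f1, the neighbours and overlapping rows, Ttpal, Fitm2, Smad4, Fgfr1, Fgfr2, Fgfr4, Dusp4, Cltc, Gata1, Apoe, Col1a1, Dkk1, Plac1, the genes at or near 0 and those of the other observations were named after their values were seen. With 2 libraries a group, the smallest p that exact permutation allows is 0.33, so it was not used. Promoter sequences came from RefSeq (GRCm38.p6), whose coordinates are not mm9.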

Additional observations from a re-analysis of the deposited data

How the results depend on the processing

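Alternatives were pseudocounts of 0.1 and 0.5, no filter, a mean of at least 5 FPKM, equal sums over named genes or over all rows, quantile normalization, eBayes without trend, a replicate block, the highest row per name, and leaving out each library. In the 13 that could test them, Dab2 had log2 changes of 0.77 to 1.29 and Hnf4a of 0.67 to 1.34. Both were called higher in each of these that kept all libraries. At a mean of at least 5 FPKM no member was left. The count of members called was 2 in each of these fits with all libraries except 3 without a filter, with 0 called lower. Without a library, 1 group has a single sample that is assumed to vary like the other group; 2109 to 2265 genes were then called higher and 3210 to 3499 lower, beside 2350 and 3779 with all libraries. A mean of at least 5 FPKM left 1292 genes called higher, equal sums over named genes 1901 lower, and equal sums over all rows 662 higher and 239 lower. The replicate block called 5709 genes lower and 3210 higher; the labels tie a number to no shared culture, and deviations of same-numbered libraries correlated at r = 0.33 across genes, a single value for both numbers with 2 libraries a group, so the block is not read as pairing. Of the 12 list medians, that of the relatives became -0.06 and that of fibroblast markers -0.03 at a mean of at least 5 FPKM, that of fibroblast markers -0.05 under quantile normalization, that of the PDGF genes 0.04 with equal sums over named genes, and that of the endocytosis partners -0.03 without shLuci replicate 1 or shTex10 replicate 2, each a change of sign; the cause was not tested. Unknown depth limits what can be said of the 8 genes under 1 FPKM.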

Other observations

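The deposited row that names Serpina1a and Serpina1d together stood apart from the other secreted products. These genes encode alpha-1-antitrypsin, a serum protease inhibitor of liver and yolk sac. The row had 7.38 and 8.57 FPKM in shTex10 and 0.721 and 0.417 FPKM in shLuci, a ratio of means of 14.0 and a log2 change of 2.52 (SE 0.13, Benjamini-Hochberg adjusted p = 0.000210 in limma). It was named after its value was seen. With means of 7.98 FPKM in shTex10 and 0.569 FPKM in shLuci, it passed the filter only through shTex10. The rows of Serpina1b, Serpina1c, Serpina1d, Serpina1e and Serpina1f were at most 0.0504 FPKM in any library. The row carries both names, and how reads were divided among the copies of this family was not examined. The value therefore cannot be given to either gene.

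Some genes of the lists that averaged under 1 FPKM were called in the fit without a filter. Cdx2, a trophectoderm factor, had 1.49 and 1.43 FPKM in shTex10 and 0.332 and 0.460 FPKM in shLuci (limma, Benjamini-Hochberg adjusted p = 0.00384). Stra6, the receptor gene for retinol-binding protein, had 0.821 and 1.05 FPKM in shTex10 and 0.374 and 0.194 FPKM in shLuci (adjusted p = 0.0144). Rbp4, the gene of that binding protein, had 0.232 and 0.410 FPKM in shTex10 and 1.32 and 1.28 FPKM in shLuci (adjusted p = 0.00514). Apob, the core apolipoprotein of lipoprotein particles, had 0.499 and 0.561 FPKM in shTex10 and 0.190 and 0.222 FPKM in shLuci (adjusted p = 0.00732).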
